A study of Mus musculus with 4 samples.

Results

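The unfolded protein and ATF4 stress response genes described here were 39 of the 17013 genes listed by symbol in the deposited expression values. They were chosen by name for their role, with earlier results of these data known. By role they comprised 4 sensors and transcription factors of the unfolded protein response, 14 endoplasmic reticulum (ER) chaperones and folding enzymes, 7 genes of ER-associated degradation, 7 regulators of the ATF4 branch and 7 enzymes of amino acid synthesis, one-carbon metabolism and tRNA charging. All 39 symbols were found.

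Wild-type mouse bone marrow-derived macrophages, matured in M-CSF and seeded on porous inserts, were kept for 24 h above necrotic fat preparations, and polyA RNA was sequenced from 4 libraries. In the fat control medium (Con, 2 libraries) the wells below the inserts held the middle layer of digested, freeze-thawed mouse abdominal fat, and in the high-fat-containing medium (Fat, 2 libraries) they held the top fat layer. Both groups also received artificial necrotic bone fluid (aNBF), the soluble material released from freeze-thawed bone and marrow, so neither group was an unstimulated culture. The study used Fat and Con to ask how the uptake of necrotic fat alters macrophages in a necrotic environment. The libraries compare the media as a whole and do not isolate uptake.

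The unfolded protein response is the program by which a cell matches the folding capacity of its ER to the load of secretory and membrane proteins. The membrane sensor IRE1 splices Xbp1 mRNA, ATF6 is released from the membrane by proteolysis, and PERK phosphorylates the translation factor eIF2α. IRE1 and ATF6 mainly drive chaperone and ER degradation genes, whereas eIF2α phosphorylation favors translation of ATF4, a transcription factor of amino acid synthesis, amino acid transport and stress genes that kinases outside the ER can also engage. In macrophages the response is known to be engaged by lipid loading and by inflammatory stimuli. Splicing of Xbp1, cleavage of ATF6 and phosphorylation of eIF2α were not measured here, since the values are totals per gene.

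Promoter elements are known for these branches, and their matches are shown because the first was found in ER genes and the second mostly in ATF4 and amino acid genes, while many members held neither. Promoters were taken from RefSeq (GRCm38.p6, from 250 bases before to 50 after the transcription start) and were found for 33 of the 39 members, the others being Manf, Hyou1, Derl1, Ppp1r15b, Atf6 and Nars. The ER stress response element, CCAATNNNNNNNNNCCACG searched on both strands, occurred in 39 of all 32851 promoters (0.119%), and in 7 of 12 promoters of chaperones and folding enzymes (58.3%) and 2 of 6 of ER-associated degradation. No promoter of the other 3 groups held it. The matches are printed in the orientation of the element, with its fixed letters in capitals:
Hspa5: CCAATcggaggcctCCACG
Hsp90b1, upstream match: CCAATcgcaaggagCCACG
Hsp90b1, downstream match: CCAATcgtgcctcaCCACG
Calr: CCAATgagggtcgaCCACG
Canx: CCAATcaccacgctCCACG
Creld2: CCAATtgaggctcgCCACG
Dnajc3: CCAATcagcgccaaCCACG
Pdia6: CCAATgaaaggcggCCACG
Syvn1: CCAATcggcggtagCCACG
Derl3: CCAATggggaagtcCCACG

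The composite element of C/EBP and ATF factors, searched as TGATGNAAN on both strands, occurred in 1299 of all promoters (3.95%) and in 5 of the 33 members (15.2%). These were Herpud1, Chac1, Trib3, Asns and Aars, of which only Herpud1 lies outside the ATF4 and amino acid groups. The short second form of the ER stress response element, ATTGGNCCACG, occurred in 12 of all promoters (0.0365%) and, among the members, in Herpud1 alone. The element TGACGTGG was found in 222 promoters (0.676%) and in no member. No matches of these elements overlapped. A match describes these letters and is not evidence of a bound factor. The matches of the composite element and the second form were as follows:
Herpud1, second form: ATTGGgCCACG
Herpud1, composite: TGATGcAAc
Chac1, composite: TGATGcAAc
Trib3, composite: TGATGtAAa
Asns, composite: TGATGaAAc
Aars, upstream composite: TGATGcAAt
Aars, downstream composite: TGATGaAAa

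The 250 bases before the start are shown for 3 genes, a chaperone, the member called lower in Fat and an amino acid enzyme, each on the strand of its gene with whole matches in capitals. The match in Hspa5 began at position -65 from the start and the second form in Herpud1 at -52. The composite element in Herpud1 began at -113 on the opposite strand, and that in Asns at -23:
Hspa5, chr2:34771840-34772089, plus strand: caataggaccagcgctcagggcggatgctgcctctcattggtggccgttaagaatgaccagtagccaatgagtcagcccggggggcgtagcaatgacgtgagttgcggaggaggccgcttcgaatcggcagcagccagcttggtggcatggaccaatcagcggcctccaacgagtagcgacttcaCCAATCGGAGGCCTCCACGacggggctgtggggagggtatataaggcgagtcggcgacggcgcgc
Herpud1, chr8:94386179-94386428, plus strand: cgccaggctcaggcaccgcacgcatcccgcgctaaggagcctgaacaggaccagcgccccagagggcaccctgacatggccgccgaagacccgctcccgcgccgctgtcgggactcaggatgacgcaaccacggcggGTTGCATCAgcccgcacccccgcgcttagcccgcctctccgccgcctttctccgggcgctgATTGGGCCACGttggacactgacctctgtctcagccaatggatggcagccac
Asns, chr6:7693210-7693459, minus strand: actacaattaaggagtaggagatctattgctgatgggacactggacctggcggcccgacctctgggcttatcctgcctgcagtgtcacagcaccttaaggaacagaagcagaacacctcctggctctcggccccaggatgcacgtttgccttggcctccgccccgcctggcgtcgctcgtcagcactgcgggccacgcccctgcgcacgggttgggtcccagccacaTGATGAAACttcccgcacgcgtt

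The libraries held 33573852 and 37881292 reads in Con and 37534565 and 40785872 in Fat, so that 1 read was worth between 0.0244 and 0.0295 CPM (read counts scaled by library size). The labeled cell type was borne out by its markers: Emr1, the gene of F4/80, lay between 1000 and 1216 CPM, and 8 of 8 macrophage markers were found in every library. Their summed level was 33920 to 35962 CPM in Con and 26918 to 28504 CPM in Fat, most of it from Lyz2 (26819 to 28720 CPM in Con and 20347 to 21516 CPM in Fat). Mertk and Fcgr1 were called lower, the other 6 were not called, and Cd68 and Itgam overlapped between the media. Of the 7 adipocyte markers, all found, the summed level was 0.147 and 0.160 CPM in Con and 4.10 and 2.46 CPM in Fat, and Adipoq, Lep and Adrb3 were at 0 reads in both Con libraries. Cidec, with 0 and 2 reads in Con and 67 and 47 in Fat, was the one adipocyte marker that passed the filter on low values. It was called higher (limma adjusted p = 0.0044). It passed the filter only through its Fat libraries, so no call in the other direction was possible and the call adds no support. Summed levels of the other lists were 251.5 to 293.5 CPM for neutrophils (5 of 6 found), 15.1 to 19.5 CPM for T and B lymphocytes (5 of 5) and 263.0 to 350.9 CPM for fibroblasts and endothelium (6 of 6). The part of these markers in the differences below was not tested. In bulk RNA, fewer cells of a type and less RNA per cell cannot be told apart.

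In macrophages of both media the highest levels among the members were those of ER chaperones and folding enzymes. That group was itself widely spread, and the ATF4 and amino acid genes were spread over the range. Values in TPM, which take gene length into account, allow levels to be compared between genes. The highest mean over the 4 libraries was that of Calr (1241 TPM), the gene of the calcium-binding chaperone calreticulin, followed by the ER chaperones Hsp90b1 (844.7 TPM) and Hspa5 (773.3 TPM). The disulfide isomerases Pdia3 and P4hb had 712.9 and 668.0 TPM, and the lectin chaperone Canx had 300.0 TPM. Chaperones and folding enzymes thus filled the first 7 places, the seventh being Pdia6 at 289.3 TPM. Atf4 came next at 198.5 TPM, before Nars (193.7 TPM) and Xbp1 (143.7 TPM). The rest of the chaperones and folding enzymes stood below these, down to Dnajb9 at 40.4 TPM.

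At the other end were several genes of the ATF4 branch and a derlin. Asns stood at 12.5 TPM, Phgdh at 7.41 TPM and Trib3 at 2.04 TPM. Chac1 and the derlin Derl3, of ER-associated degradation, were lowest at 0.523 and 0.502 TPM. Ddit3, the gene of the transcription factor CHOP, had 38.5 TPM. The plot of levels shows that the spread between genes was far wider than that between media.

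**Figure D1:**
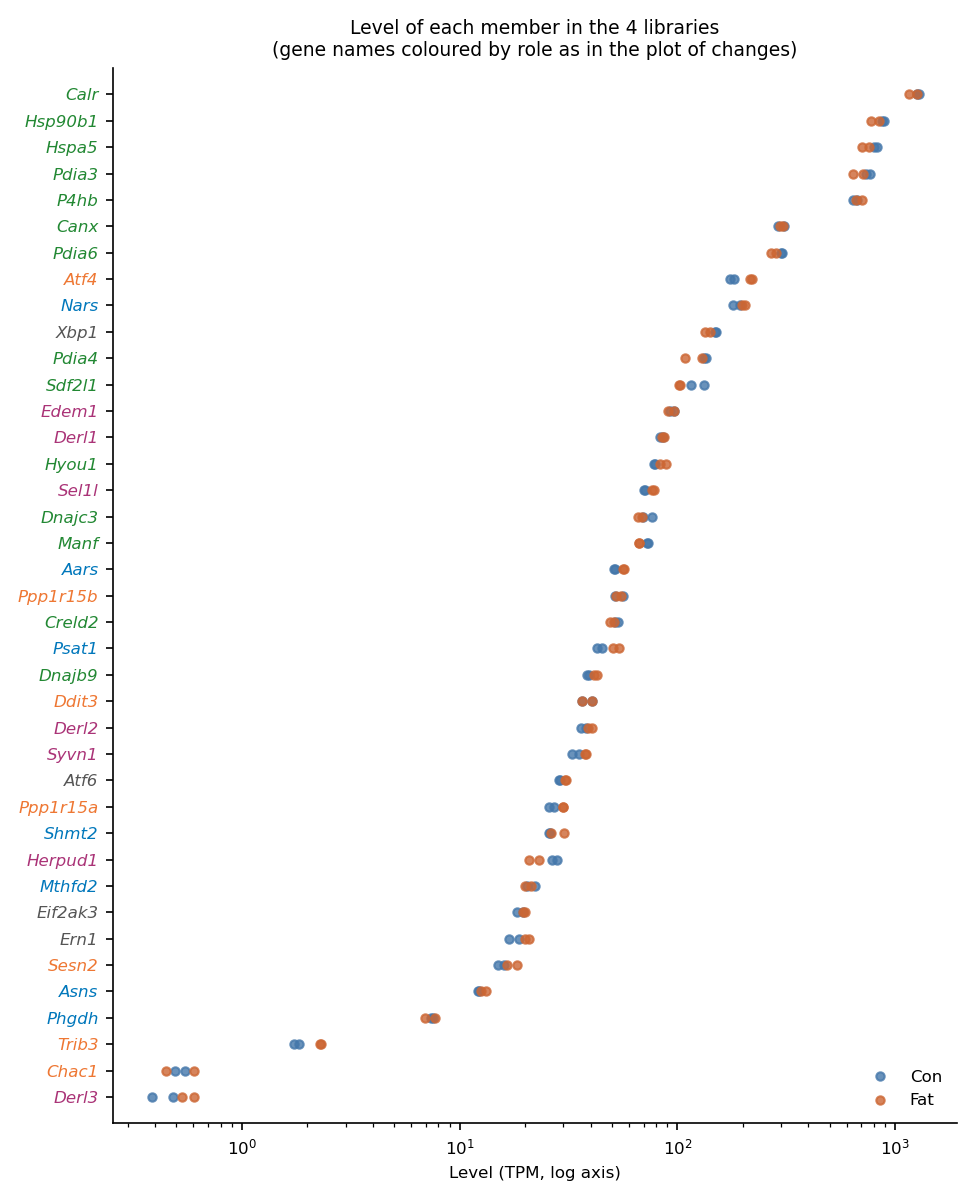
Level of each of the 39 members in the 4 libraries (TPM, log axis), with blue points for Con and orange points for Fat and genes in order of mean level. Calr is at the top at 1241 TPM and Derl3 at the bottom at 0.502 TPM, and the levels differ far more between genes than between the libraries of a gene.

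Most members differed little between the media. Of the 39 members, 37 passed the filter on low values and were tested with limma on log2(CPM + 0.1), with Benjamini-Hochberg adjustment over 12470 genes. Atf4 was higher in Fat and Herpud1 was lower, so that 5.41% were called against 9.0% of all tested genes (3.99% higher and 5.0% lower). edgeR and DESeq2, run on the recovered reads, called both genes too. The 37 log2 fold changes ran from -0.35 to 0.33 with a median of -0.01, and 18 were positive and 19 negative. Their median size was 0.10, beside 0.12 over all tested genes. None was beyond 1.5-fold, which 5.76% of all tested genes were.

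The precision limits what could be missed. The median standard error was 0.07 on the log2 scale, and the 95% confidence interval lay within 0.5 either way for 35 members and within 1 for all 37. The interval included 0 for 26. At an unadjusted limma p of at most 0.05, 2 members were higher (5.41%, against 11.8% of all tested genes) and 9 lower (24.3%, against 12.4%). The forest plot gives every estimate.

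**Figure D2:**
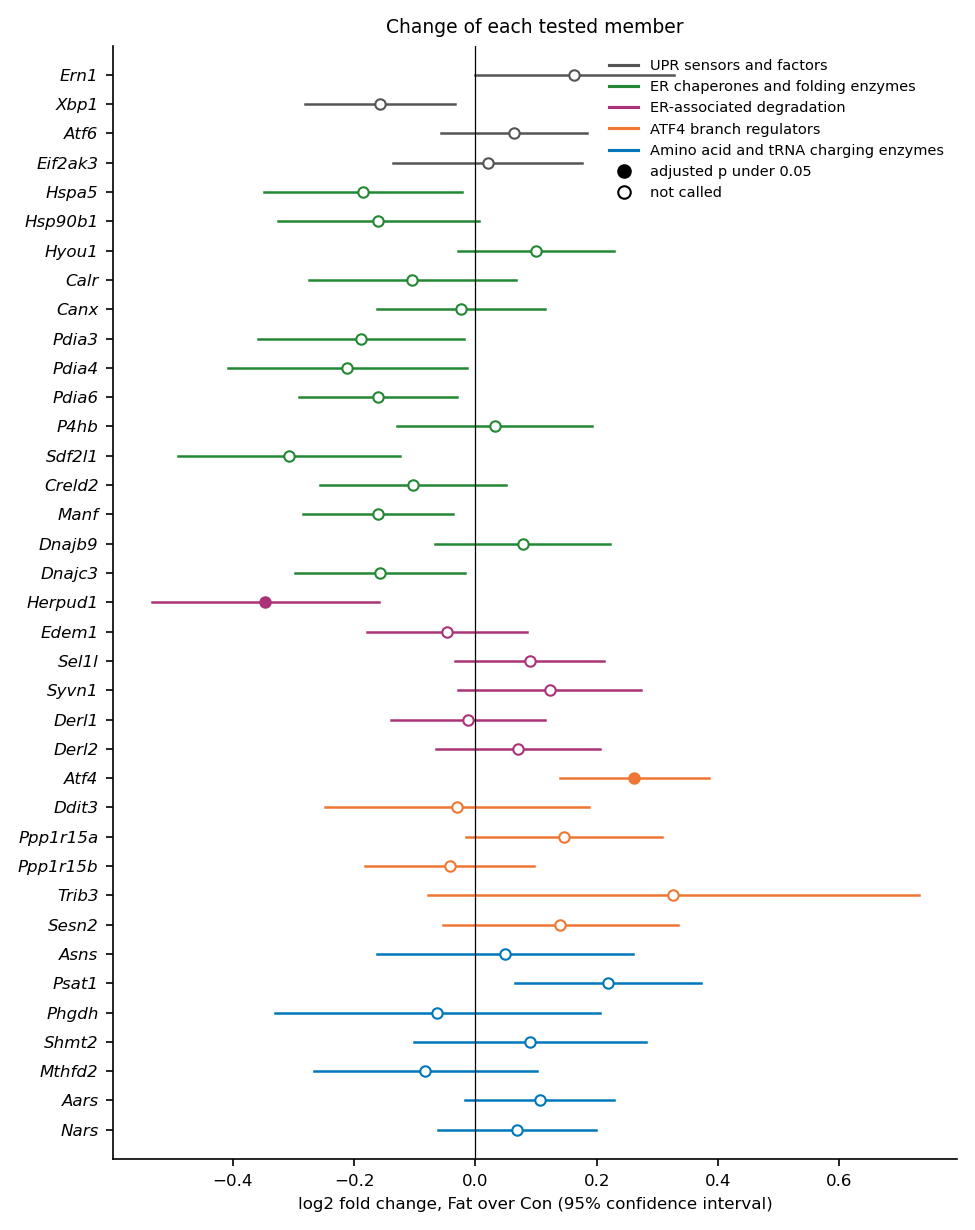
log2 fold change of Fat over Con for the 37 tested members with 95% confidence intervals from limma, colored by role. Filled points mark the 2 called members, Atf4 at 0.26 and Herpud1 at -0.35, and all points lie between -0.35 and 0.33.

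Among the sensors and transcription factors no gene was called. Xbp1, the target of IRE1 splicing and the factor behind many ER degradation and chaperone genes, had 154.9 and 156.2 CPM in Con and 142.4 and 136.4 CPM in Fat. Both Fat libraries lay below both Con libraries. Its log2 fold change was -0.16 (95% interval -0.28 to -0.03, limma adjusted p = 0.118). Ern1, the gene of IRE1 itself, went the other way in value, with 34.2 and 31.2 CPM in Con and 36.0 and 37.2 CPM in Fat (log2 fold change 0.16, limma adjusted p = 0.21, and 0.10 on the log2 scale without Con replicate 2). Atf6 was at 98.3 and 99.9 CPM in Con and 104.0 and 103.1 CPM in Fat, a log2 fold change of 0.06 (limma adjusted p = 0.509). Eif2ak3, which encodes PERK, overlapped between the media at 37.8 to 41.1 CPM, with an interval of -0.14 to 0.18 on the log2 scale.

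The ER chaperones and folding enzymes were the group with the most values below Con, although limma called no member. In 10 of 14 (71.4%) both Fat libraries lay below both Con libraries, an arrangement found for 26.2% of all tested genes, and in 2 they lay above. The median log2 fold change was -0.16, beside 0.01 over all tested genes, and -0.09 without Fat replicate 2. At an unadjusted limma p of at most 0.05, 7 of 14 were lower (50%, against 12.4% of all tested genes). At that threshold 0 were higher, against 11.8% of all tested genes. Summed over the 14 genes, the level was 6455 and 6564 CPM in Con and 6236 and 5787 CPM in Fat, a difference of -7.65%.

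Within that group, Sdf2l1, a partner of the ER chaperone cycle, had the largest difference. Its level was 58.8 and 68.3 CPM in Con and 50.8 and 51.5 CPM in Fat, so the groups did not overlap while the Con libraries stood apart from each other. The log2 fold change was -0.31 (95% interval -0.49 to -0.12, limma adjusted p = 0.0538). On the recovered reads it was called by edgeR's quasi-likelihood test (adjusted p = 0.0458) and by DESeq2 (adjusted p = 0.0234). The estimate was -0.42 without Con replicate 1 (limma adjusted p = 0.0136) and -0.20 without Con replicate 2 (limma adjusted p = 0.157).

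Hspa5 encodes BiP, the main Hsp70 of the ER and the usual readout of ER stress. It had 959.0 and 1008 CPM in Con and 896.5 and 832.9 CPM in Fat. The groups did not overlap, and the log2 fold change was -0.19 (95% interval -0.35 to -0.02, limma adjusted p = 0.156). Hsp90b1, the Hsp90 of the ER, had 1126 and 1120 CPM in Con and 1048 and 963.3 CPM in Fat (log2 fold change -0.16, limma adjusted p = 0.221). The J-domain co-chaperones of BiP differed in sign of their estimates. Dnajc3 had 182.4 and 168.8 CPM in Con and 160.4 and 154.3 CPM in Fat (log2 fold change -0.16), whereas Dnajb9 had 33.6 and 33.4 CPM in Con and 35.9 and 34.7 CPM in Fat (log2 fold change 0.08). Hyou1, a nucleotide exchange factor of BiP, was the other chaperone with both Fat values above Con. It had 159.2 and 161.7 CPM in Con and 177.0 and 167.0 CPM in Fat (log2 fold change 0.10).

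Of the protein disulfide isomerases, which form and rearrange disulfide bonds in client proteins, 3 of 4 lay below Con in both Fat libraries. This arrangement was found for 26.2% of all tested genes, and no isomerase was called. Pdia3, the partner of the lectin chaperones, had 923.1 and 908.4 CPM in Con and 847.3 and 761.6 CPM in Fat (log2 fold change -0.19, limma adjusted p = 0.166). Pdia4 had 154.0 and 152.9 CPM in Con and 145.0 and 121.1 CPM in Fat. Its Fat libraries differed from each other by more than its Con libraries, and its log2 fold change of -0.21 (limma adjusted p = 0.178) was -0.34 without Fat replicate 1, with an adjusted p of 0.026, and -0.08 without Fat replicate 2. Pdia6 had 292.0 and 300.8 CPM in Con and 271.8 and 258.7 CPM in Fat (log2 fold change -0.16, limma adjusted p = 0.13). Without Fat replicate 2 the estimates of Pdia3, Hsp90b1 and Calr were -0.11, -0.10 and -0.04. P4hb, the most studied isomerase of the family, overlapped at 739.7 to 806.4 CPM.

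The lectin chaperones bind glycoproteins that carry a trimmed sugar chain. Calr had 1119 and 1161 CPM in Con and 1107 and 1015 CPM in Fat (log2 fold change -0.10), and Canx overlapped between the media at 572.7 to 603.0 CPM. Manf, a secreted and ER-resident factor induced by ER stress, had replicates that nearly coincided. Its values were 73.8 and 74.3 CPM in Con and 66.3 and 66.2 CPM in Fat (log2 fold change -0.16, limma adjusted p = 0.114). Creld2 had 32.3 and 33.9 CPM in Con and 31.5 and 30.2 CPM in Fat (log2 fold change -0.10). Of the 7 genes of the group with an ER stress response element in the searched window, 6 had both Fat values below Con. Canx was the exception. Of the 5 with a promoter but no match, 3 did, and so did 26.2% of all tested genes. Outside the group, Syvn1 and Derl3 also hold the element. Both had their Fat values above Con, Derl3 from few reads. Whether the element bears on these differences was not tested.

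In ER-associated degradation, by which misfolded proteins are taken out of the ER and handed to the proteasome, Herpud1 was lower in Fat and the rest were not called. Herpud1 encodes a membrane protein that organizes the degradation complex and is itself induced by ER stress, and it is the member whose promoter holds both the second form and the composite element shown above. It had 24.0 and 23.2 CPM in Con and 19.5 and 17.6 CPM in Fat. The groups did not overlap, with means of 23.6 ± 0.592 CPM in Con and 18.5 ± 1.32 CPM in Fat (SD, n = 2 each). Herpud1 fell by 0.35 on the log2 scale (standard error 0.08, 95% interval -0.53 to -0.16, limma adjusted p = 0.0394). The adjusted p was 0.0504 without the filter, 0.0712 with TPM and 0.13 without limma's mean-variance trend. Left out in turn, Con replicates 1 and 2 and Fat replicate 2 gave 0.135, 0.0633 and 0.2, and the log2 fold change stayed between -0.42 and -0.27.

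The core of the degradation complex gave values near or above Con. Sel1l, its adaptor, had 202.5 and 209.0 CPM in Con and 221.3 and 216.5 CPM in Fat (log2 fold change 0.09), and Syvn1, the ubiquitin ligase HRD1, had 54.7 and 60.1 CPM in Con and 62.7 and 62.2 CPM in Fat (log2 fold change 0.12). Edem1, which sorts glycoproteins for degradation, overlapped at 240.1 to 258.1 CPM. The derlins are membrane proteins of the exit channel. Derl1 overlapped at 120.2 to 126.2 CPM, and Derl2 had 72.6 and 69.7 CPM in Con and 72.9 and 76.5 CPM in Fat (log2 fold change 0.07). Derl3, under the filter, had 10 and 9 reads in Con and 12 and 15 in Fat. The median log2 fold change of the 6 tested genes was 0.03, and the summed level of the 7 genes was 732.3 and 742.2 CPM in Con and 753.1 and 736.6 CPM in Fat.

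Atf4, the transcription factor of the branch, was higher in Fat. It had 144.6 and 140.0 CPM in Con and 172.6 and 168.7 CPM in Fat, from 4904 to 6915 reads. The groups did not overlap, and the gap between them was wider than the spread within either, with means of 142.3 ± 3.25 CPM in Con and 170.6 ± 2.75 CPM in Fat (SD, n = 2 each). The log2 fold change was 0.26 (standard error 0.05, 95% interval 0.14 to 0.38, limma adjusted p = 0.0249), a level 19.9% above Con. Left out in turn, Con replicate 2, Fat replicate 1 and Fat replicate 2 gave adjusted p-values of 0.0581, 0.0913 and 0.0863, and the fit without the mean-variance trend gave 0.136. The log2 fold change lay between 0.24 and 0.29 in every alternative run. Its control is largely translational, so the mRNA level is not a measure of the protein.

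The plot of single libraries shows Atf4 beside Herpud1 and the members next in order of p-value.

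**Figure D3:**
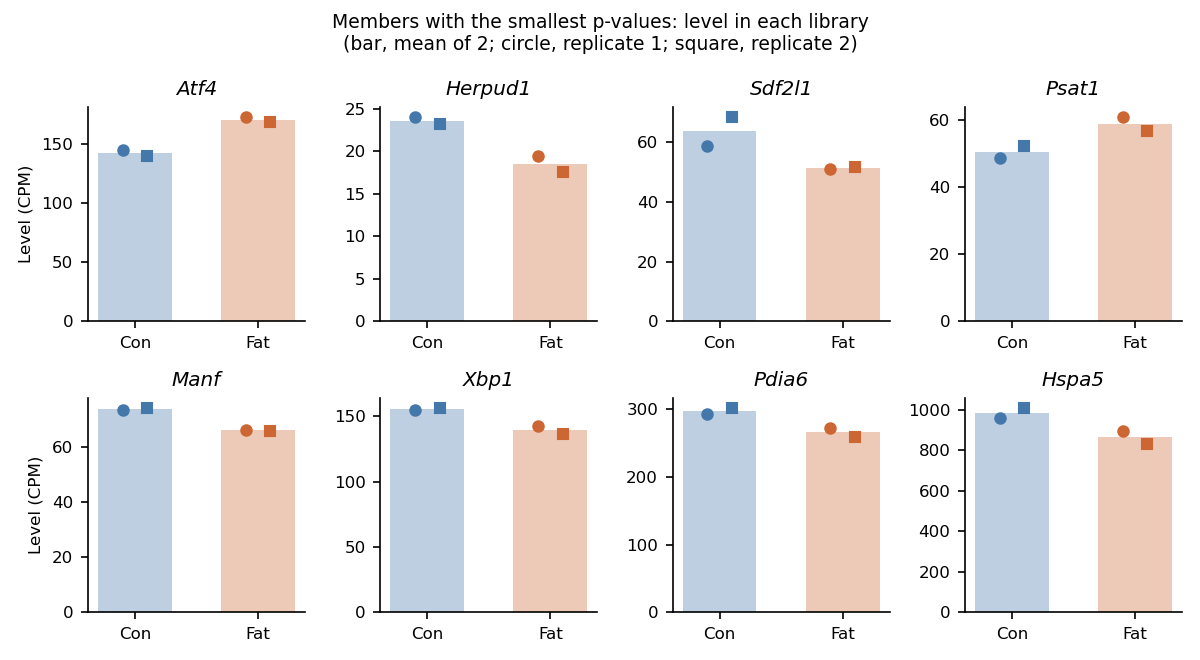
Level (CPM) in each library for the 8 members with the smallest limma p-values, with bars for the mean of 2 libraries, circles for replicate 1 and squares for replicate 2. In all 8 the Fat points lie on one side of the Con points. They lie above for Atf4 and Psat1 and below for Herpud1, Sdf2l1, Manf, Xbp1, Pdia6 and Hspa5. The choice by p-value favors such separation, so it adds no support. Over all tested genes both Fat libraries lay above both Con libraries for 29.4% and below for 26.2%.

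The other regulators of the ATF4 branch were not called. Ddit3, which encodes the factor most often used as a sign of sustained ER stress, overlapped with 16.2 and 14.7 CPM in Con and 15.9 and 14.4 CPM in Fat (95% interval -0.25 to 0.19 on the log2 scale, limma adjusted p = 0.883). Ppp1r15a, the inducible phosphatase subunit that reverses eIF2α phosphorylation, had 27.4 and 29.6 CPM in Con and 31.5 CPM in each Fat library (log2 fold change 0.15, limma adjusted p = 0.25). Its constitutive relative Ppp1r15b overlapped at 132.0 to 144.1 CPM. Trib3, a pseudokinase and feedback inhibitor of the branch, had only 58 and 62 reads in Con and 80 and 87 in Fat. Its estimate was the highest of all members at 0.33, but with an interval of -0.08 to 0.73 (limma adjusted p = 0.305). Sesn2, a stress-induced inhibitor of mTORC1, had 19.4 and 18.5 CPM in Con and 19.8 and 22 CPM in Fat (log2 fold change 0.14). Chac1, which degrades glutathione, was under the filter with 12 and 15 reads in Con and 16 and 13 in Fat.

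No enzyme of amino acid synthesis, one-carbon metabolism or tRNA charging was called. Psat1, an aminotransferase of serine synthesis, came closest with 48.7 and 52.2 CPM in Con and 60.8 and 56.7 CPM in Fat. Both Fat libraries lay above both Con libraries, and the log2 fold change was 0.22 (95% interval 0.07 to 0.37, limma adjusted p = 0.0887). Phgdh, which opens the same pathway, overlapped at 5.87 to 6.58 CPM. Its value is uncertain, since 71.1% of the 75-base stretches of its transcripts also occur in other genes, mostly a pseudogene. Asns, the asparagine synthetase whose promoter is shown above, overlapped at 10.7 to 11.6 CPM with an interval of -0.16 to 0.26. The mitochondrial one-carbon enzymes Shmt2 and Mthfd2 overlapped as well, at 27.2 to 31.4 and 18.6 to 21 CPM.

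The tRNA synthetases for alanine and asparagine each had both Fat values above Con. Of 18 further cytosolic tRNA synthetases, 5 had both Fat values above Con (27.8%) and 4 had both below (22.2%). Aars had 86.9 and 89.2 CPM in Con and 95.1 and 94.4 CPM in Fat (log2 fold change 0.11, limma adjusted p = 0.271), and Nars had 234.4 and 222.8 CPM in Con and 243.6 and 235.9 CPM in Fat (log2 fold change 0.07). Over the regulators and enzymes together, 13 of 14 were tested, with 1 called higher and 0 lower. In 7 both Fat libraries lay above both Con libraries (53.8%, against 29.4% of all tested genes) and in 0 below. The median log2 fold change was 0.09, and 0.06 without Fat replicate 2. Their summed level was 789.1 and 768.6 CPM in Con and 844.1 and 826.1 CPM in Fat, a difference of 7.22%, to which Atf4 contributed most.

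Other genes of the same pathways, listed by function, are given beside the 9.0% of all tested genes called (3.99% higher and 5.0% lower). The share called in a list was between 0% and 7.41%. Of 34 tested genes of ER folding and translocation, 1 was higher and 1 lower, with a median log2 fold change of -0.00. Ero1l, the oxidase that recharges disulfide isomerases, had 50.6 and 51.8 CPM in Con and 69.4 and 63.9 CPM in Fat (log2 fold change 0.38, limma adjusted p = 0.0144). Dnajc10, a disulfide reductase and co-chaperone, had 150.5 and 136.3 CPM in Con and 118.0 and 115.3 CPM in Fat (log2 fold change -0.30, limma adjusted p = 0.0303, and 0.122 at most without Con replicate 1, Fat replicate 1 or Fat replicate 2). Of 20 genes of ER degradation, Sel1l3 alone was called, with 27.1 and 30.5 CPM in Con and 39.8 and 39.2 CPM in Fat (log2 fold change 0.46, limma adjusted p = 0.0144), and the median was 0.02. None of 14 genes of sensing and eIF2α signaling was called, with a median of -0.02. At an unadjusted limma p of at most 0.05, 2 (14.3%) were higher and 2 (14.3%) lower. The shares of all tested genes at that threshold were close, at 11.8% higher and 12.4% lower.

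Among 27 tested further ATF4 targets, 1 was higher and 1 lower, with a median of 0.05. At an unadjusted limma p of at most 0.05, 7 were higher and 2 lower, against 11.8% and 12.4% of all tested genes. In 11 both Fat libraries lay above both Con libraries (40.7%, against 29.4% of all tested genes). In 8 both lay below (29.6%, against 26.2%). Slc7a11, the cystine transporter that feeds glutathione synthesis, had 119.7 and 101.9 CPM in Con and 148.2 and 135.0 CPM in Fat (log2 fold change 0.36, limma adjusted p = 0.0451, and 0.127 at most without Con replicate 2, Fat replicate 1 or Fat replicate 2). Nupr1, a stress-induced chromatin protein, had 5.96 and 5.30 CPM in Con and 3.19 and 3.27 CPM in Fat (log2 fold change -0.78, limma adjusted p = 0.015, and 0.0654 without Con replicate 1). Gdf15, a stress cytokine named here after its values were seen, had 103 and 162 reads in Con and 218 and 494 in Fat. Its log2 fold change of 1.19 was the highest of the list, but the Fat libraries differed widely and it was not called (limma adjusted p = 0.0625). Of 18 further cytosolic tRNA synthetases, Wars alone was called and the median was 0.04. Wars, for tryptophan, which interferon is known to induce, had 104.4 and 103.5 CPM in Con and 60.3 and 44.6 CPM in Fat (log2 fold change -1.0, limma adjusted p = 0.00553). Each of these 6 calls was lost without limma's mean-variance trend, and those of Dnajc10 and Slc7a11 also with TPM.

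**Figure D4:**
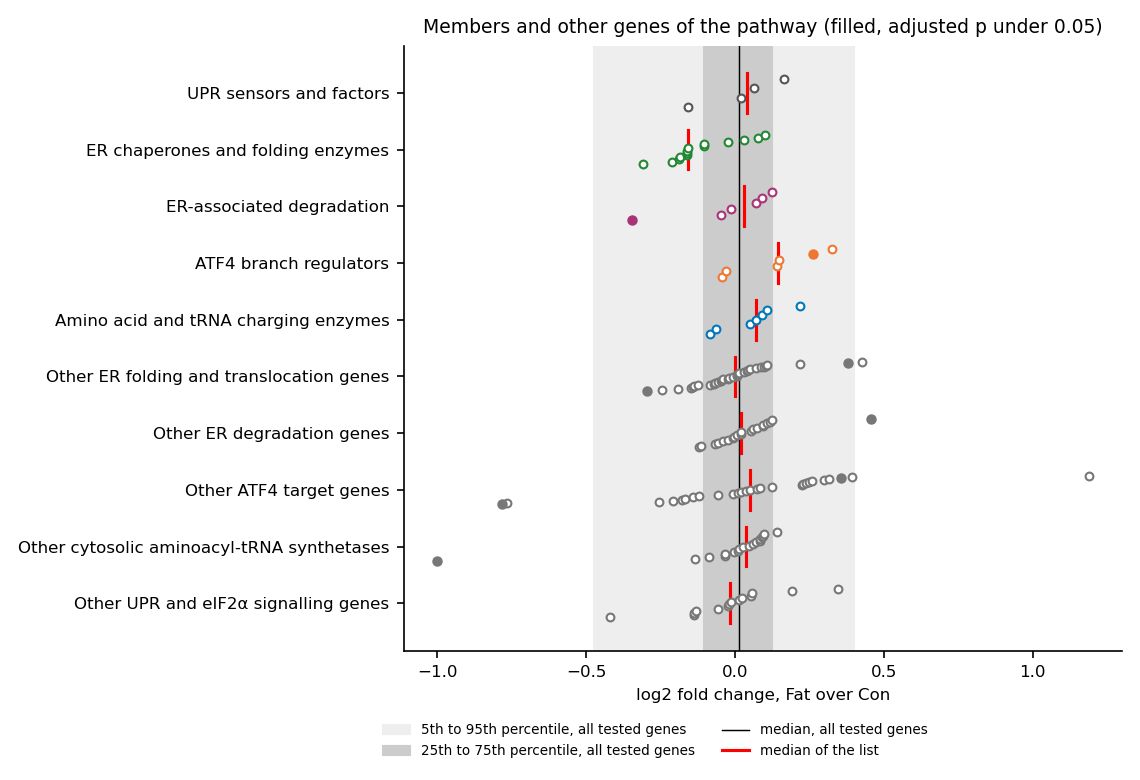
log2 fold change of Fat over Con for each tested member (colored, by role) and for other genes of the pathways (gray), with filled points for limma adjusted p under 0.05, red lines for list medians and shaded bands for the percentiles of all 12470 tested genes. The median of the chaperones is -0.16, that of the ATF4 regulators 0.14, and those of the other lists lie between -0.02 and 0.07.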

How the data were processed

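Libraries were made from polyA RNA with a stranded kit at a university sequencing core and sequenced there as single reads of 75 bases. The values deposited by the authors are CPM, read counts scaled by library size and a further factor per library, and TPM, also scaled for gene length. The submitters' processing notes name the genome build GRCm39, and the study's methods name edgeR for its own test. The aligner, the annotation and whether counting used the strand are not given in the sources used here. RefSeq promoters are of GRCm38.p6, so their coordinates serve only the sequences printed.

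Samples were grouped by their titles. Reads were recovered from the CPM values, of which 100% were whole multiples of 1 read within 0.01 reads. The main test was that of limma 3.58.1 (R 4.3.3), two-sided and with a trend of variance on mean, run on log2(CPM + 0.1) of genes that reached 0.5 CPM in 2 or more libraries, with calls at an adjusted p under 0.05. Fold changes on this scale understate those of low genes. At this threshold 1122 genes were called, and edgeR 4.0.16 (quasi-likelihood) called 1138 and DESeq2 1.42.0 called 1060 on the recovered reads. Other settings tried were TPM in place of CPM, median-ratio scaling, a pseudocount of 1 CPM, a filter on a mean of 5 CPM or none, no trend, the replicate number as a block, an unadjusted p of at most 0.05 and each library left out. An exact permutation test of 2 libraries against 2 cannot go below p = 0.333 and was not used.

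The labels do not say that replicates were separate cultures, so p-values measure only the spread between these libraries, which may be technical. The members and lists were chosen with earlier results of these data known. All 39 members are named; of each further list, the called genes are named, at most 4, and Gdf15, not called, was added after its values were seen. Shared sequence was checked by aligning every stretch of 75 bases, at steps of 5, of GENCODE vM21 transcripts with BWA 0.7.19, allowing 2 mismatches. Phgdh shared 71.1% of its stretches, and Dnajb9, Hsp90b1, Derl1, Aars and Ppp1r15b between 10.3% and 14.6%. The tests were checked on simulated counts. No listed gene was matched to Fgf21, Ern2 or Ly6g, so these were not analysed. Figures were drawn with matplotlib 3.10.9 in Python 3.11.15.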

Additional observations from a re-analysis of the deposited data

How the results depend on the processing

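The alternatives for single members numbered 517, including the main fit read at the unadjusted threshold. Of these, 473 kept their direction and side of the threshold, 20 gained and 10 lost the call, and 14 turned sign. Of the 20 gained, 9 came from the unadjusted threshold and 6 from the replicate block. Calls over all genes (498 higher, 624 lower) were 19 and 12 without limma's mean-variance trend, 1467 and 1541 at an unadjusted p of at most 0.05, and 366 lower with TPM, where 53.7% of 791 calls were higher against 44.4%. With 1 library left out they ran from 216 to 519 higher and from 313 to 612 lower, with 216 and 313 without Fat replicate 2 and 334 lower without Con replicate 1. Members called higher (1) were 0 without the trend, 2 at the unadjusted threshold and 0 to 1 with 1 library left out. Members called lower (1) were 0 without the filter, with TPM or without the trend, 2 with median-ratio scaling, edgeR or DESeq2, 9 at the unadjusted threshold, and 0 to 2 with 1 library left out.

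The median log2 fold change of the chaperones (-0.16) ran from -0.18 to -0.091 with 1 library left out. That of ER-associated degradation (0.03) was 0.071 without the filter, 0.061 with TPM and 0.0098 to 0.038 with 1 library left out, the lowest without Con replicate 1, and 0.017 without Fat replicate 2. That of the ATF4 and amino acid genes (0.09) was 0.12 with TPM and 0.064 to 0.10 with 1 library left out. The sign turned only for members that were not called. With TPM this was so for Canx (0.0077), Derl1 (0.019) and Ddit3 (0.0010). With 1 library left out, Eif2ak3 ran from -0.039 to 0.079, Canx from -0.051 to 0.0021, P4hb from -0.017 to 0.080, Derl1 from -0.048 to 0.022, Ddit3 from -0.10 to 0.041, Ppp1r15b from -0.093 to 0.0072, Phgdh from -0.14 to 0.011 and Shmt2 from -0.0081 to 0.19. The cause was not tested.

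The labels number the replicates of both groups alike, but nothing says that a number marks a shared batch. Deviations of libraries with the same number correlated at 0.20 over the tested genes. A fit with the replicate number as a block leaves 1 residual degree of freedom and called 1278 genes higher and 1242 lower, among them 2 members higher (Atf4, Psat1) and 6 lower (Herpud1, Xbp1, Pdia4, Sdf2l1, Manf, Dnajc3).

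With 2 libraries a group, the 95% intervals allow differences of up to 0.5 on the log2 scale for 35 members and up to 1 for all 37, and Trib3, Chac1 and Derl3 are also limited by few reads.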
